A study of Rattus norvegicus with 12 samples.

Results

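Caffeine given before dextromethorphan was set against dextromethorphan alone in the serum microRNAs of male Sprague-Dawley rats (Jcl:SD). MicroRNAs are short RNAs that pair with messenger RNAs through their seed, the bases near their 5′ end, and those in serum leave many organs and blood cells in vesicles or bound to protein. The rats were dosed by mouth once at 7 weeks of age. One group (DEX) was given 200 mg/kg of the cough suppressant dextromethorphan hydrobromide monohydrate, which blocks NMDA receptors. The other (CAFDEX) was given 180 mg/kg caffeine, a stimulant that blocks adenosine receptors, and then the same dose of dextromethorphan 1 h later. Blood was drawn 1 h after dextromethorphan in both groups. Serum therefore came 1 h after the first dose in one group and after a longer time in the other, and the sources used here do not say whether rats given dextromethorphan alone also received vehicle at the time of caffeine. Caffeine and the additional earlier dosing cannot be told apart. Control rats given sterile distilled water and rats given caffeine (CAF, 180 mg/kg) are used for reference levels. The design gives 5 rats in each of 4 groups, and 3 libraries of each were analysed here, 12 in all. Nothing in the labels says that a library stands for 1 rat, so each p-value reflects only how far the libraries scatter, which may be technical.

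The microRNAs described are the mature names above 0 in at least 3 of the 12 libraries after rows with the same name were summed. They were 479 of 752 mature names. Values are FPKM, fragments scaled by the length of the microRNA and by depth, where depth is the sum over the microRNAs in this table. Of the 479, those with a mean of at least 80 FPKM were tested, which left 366 holding 99.99% of all FPKM. Differences are CAFDEX minus DEX on the log2(FPKM + 40) scale, tested with limma over all 366 with Benjamini-Hochberg adjustment, and a microRNA passed when its adjusted p was under 0.05.

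Several of the microRNAs described below are known for the tissue that makes them. The miR-200 family (miR-200a, miR-200b, miR-200c, miR-141 and miR-429) is made by epithelial cells and represses ZEB1 and ZEB2, the transcription factors that turn off E-cadherin. MiR-192 and miR-194 are made from shared transcripts and are abundant in gut, liver and kidney epithelium. MiR-375 is known from pancreatic islets and from enteroendocrine and other gut cells, miR-122 and miR-802 from liver, and miR-150 from mature lymphocytes.

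Sequences are shown for the 7 microRNAs that passed and have one, and for miR-200c-3p, which did not pass, to compare it with miR-141-3p, since the seed (bases 2 to 8, in capitals) sets which messages a microRNA can pair with. They come from RefSeq (GRCr8), which matched 442 of the 479 names, 7 of them among the 13 that passed the test. The first lines are strands of the miR-200 family, followed by the pair from the miR-192 and miR-194 locus, the gut and islet microRNA miR-375-3p, and miR-450b-3p.
miR-200a-5p: cAUCUUACcggacagugcugg
miR-200b-5p: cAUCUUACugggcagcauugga
miR-141-3p: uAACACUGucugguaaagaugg
miR-200c-3p: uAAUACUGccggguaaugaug
miR-192-5p: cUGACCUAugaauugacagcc
miR-194-5p: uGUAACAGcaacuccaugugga
miR-375-3p: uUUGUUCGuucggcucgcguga
miR-450b-3p: aUUGGGGAcgcuucgcauuca
The 5p strands of miR-200a and miR-200b have the same seed, AUCUUAC, and differ outside it at 5 bases counted from the 5′ end (C9U, A12G, U16C, G17A and C18U, miR-200a-5p first). MiR-141-3p and miR-200c-3p differ inside the seed by C4U, and beyond it by U9C, U11G and A17U, miR-141-3p first. The seeds of the last 4 lines each belonged to a single tested microRNA with a sequence. Of the 366 tested microRNAs, 338 had a sequence. Their median GC content was 50%, as was that of the 7 with a sequence that fell, which ranged from 40.9% to 57.1%.

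The dextromethorphan libraries were the shallowest of the series, with 403913 to 895792 reads assigned to microRNAs, against 758290 to 1160717 in the combination libraries and 1304868 or more in the other 6. For a microRNA 22 nucleotides long, each read added 39.2 to 113 FPKM in the 6 libraries compared, so low values rest on few reads. DEX2 and DEX3 stood apart on the second principal component (12.7 and 10.7, against at most 1.58 in the other 10 libraries), away from DEX1. The haemolysis index is log2 of miR-451-5p over miR-23a-3p, a measure of red cell RNA in serum. It was -6.47 in DEX1, -5.13 in DEX2 and -5.26 in DEX3, with DEX2 and DEX3 the highest of the series. With both drugs it was -6.44 to -5.67, with caffeine -7.11 to -6.40 and in control serum -7.83 to -7.11. Calls that end when a library is left out are named with their values below.

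With both drugs, 12 microRNAs took a smaller share of the serum microRNAs than with dextromethorphan alone, 6 of them of the miR-200 family. MiR-150-5p took a larger share. Of 366 tested, 13 passed (3.55%), of which 12 were lower with both drugs than with dextromethorphan alone (3.28%) and 1 was higher (0.273%). The 12 were miR-194-5p, miR-375-3p, miR-429, miR-200b-3p, miR-200b-5p, miR-192-5p, miR-200a-5p, miR-200a-3p, miR-802-5p, miR-450b-3p, miR-378b and miR-141-3p. Together they held 0.895%, 1.90% and 1.27% of the reads in DEX1, DEX2 and DEX3, against 0.442%, 0.384% and 0.272% in CAFDEX2, CAFDEX3 and CAFDEX6. In control serum they held 0.134% to 0.212%, and in caffeine serum 0.263% to 0.445%. Their summed share with both drugs was thus below every dextromethorphan library, within the range with caffeine alone, and above every control library. Most of that sum was miR-192-5p, at 0.367%, 0.313% and 0.215% in CAFDEX2, CAFDEX3 and CAFDEX6. Taken singly, 5 of the 12 had every combination library above every control library. Values are shares of a fixed total, so a lower value need not mean a lower amount in serum. Serum is also a mixture, so fewer cells releasing a microRNA and less of it released per cell cannot be told apart.

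Most differences were small and tilted down. The median over all 366 was -0.24, the middle of the distribution ran from -0.54 (lower quartile) to 0.14 (upper quartile), and 253 were below 0 against 113 above. Without adjustment, 59 had a p under 0.05 (16.1%), 48 of them lower (13.1%) and 11 higher (3.01%). All 3 CAFDEX libraries lay below all 3 DEX libraries for 48 microRNAs (13.1%) and above them for 14 (3.83%). The tilt moved with the scaling. With library sizes set by the median of ratios the median over all tested microRNAs was -0.00291, and with quantile normalization 0.04. A count of values below 0 within any list has to be read against that shift.

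**Figure D1:**
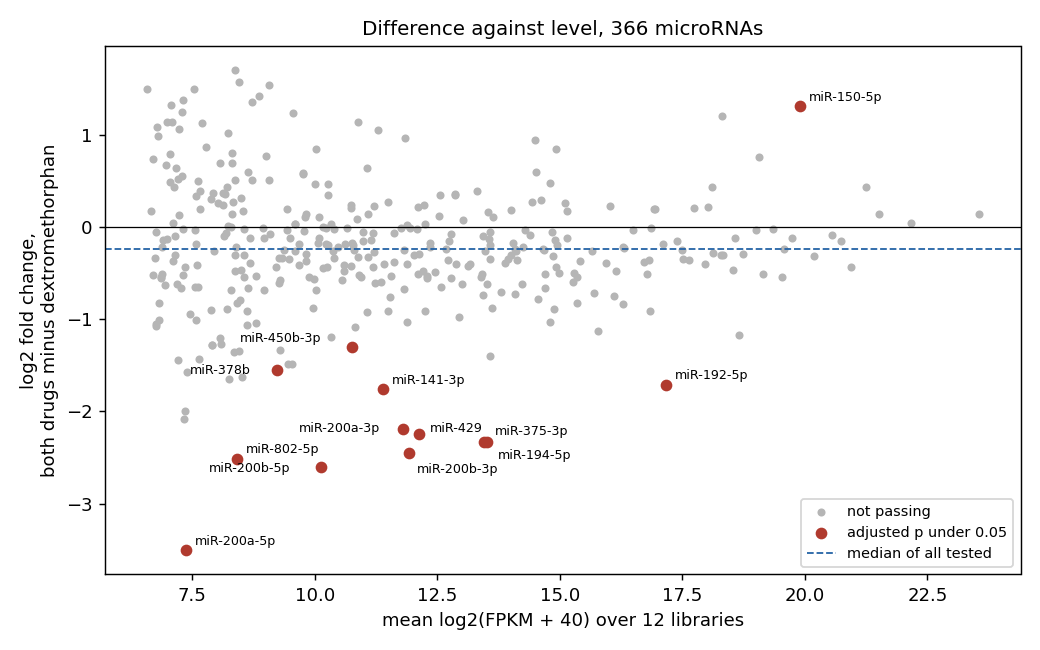
Log2 fold change, both drugs minus dextromethorphan, against the mean log2(FPKM + 40) over 12 libraries for 366 microRNAs, with the 13 that passed in red and the median of all tested as a dashed line at -0.24. The 12 lower ones lie at -1.30 or below across a wide range of levels, and miR-150-5p is the one red point above 0.

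The miR-200 family was lower with both drugs. Of its 9 names in the table, 8 were tested, 6 fell and none rose (0.273% of all tested rose and 3.28% fell). The median difference was -2.21 against -0.24 over all tested. The lists here and below were chosen with earlier results of these data known, so counts within them are a description. MiR-200b-3p, a main strand of the family, was at 6747, 24995 and 17976 FPKM with dextromethorphan alone and 2928, 2809.5 and 2173 with both drugs, the libraries being in the order DEX1, DEX2, DEX3 and CAFDEX2, CAFDEX3, CAFDEX6 here and below. It fell by 2.45 ± 0.43 (SE, adjusted p = 0.00305) on the log2 scale. The 3 combination libraries were close to each other, while DEX1 was the lowest of the dextromethorphan libraries and still above all 3 of them. Control serum held 1292 to 2366 FPKM of it and caffeine serum 2642 to 4464 FPKM.

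MiR-429, encoded beside miR-200a and miR-200b, was at 8525, 25619 and 19919 FPKM with dextromethorphan alone and 3979, 3657 and 2741 with both drugs. It fell by 2.24 ± 0.39 (SE, adjusted p = 0.00305), with the same order of libraries and no overlap between the groups. MiR-200a-3p was at 5531, 16191 and 17105 FPKM with dextromethorphan alone and 2558, 2697 and 2271 with both drugs, and it fell by 2.19 ± 0.42 (SE, adjusted p = 0.00416). DEX2 and DEX3 were nearly equal for it, and DEX1 was at less than their level but above every combination library. MiR-141-3p, whose sequence is shown above, was at 3450.5, 11887 and 11704 FPKM with dextromethorphan alone and 2995, 2158 and 1841 with both drugs. It fell by 1.76 ± 0.43 (SE, adjusted p = 0.0272), with a gap between the groups that was narrow, since DEX1 stood just above CAFDEX2.

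The 5p strands, which share the seed AUCUUAC, were also lower. MiR-200b-5p was at 1979, 6661 and 5739 FPKM with dextromethorphan alone and 415, 779 and 901 with both drugs, and it fell by 2.60 ± 0.47 (SE, adjusted p = 0.00398). MiR-200a-5p rested on very few reads: 5, 14 and 7 in the dextromethorphan libraries and 1, 0 and 1 in the combination libraries, or 266, 1503 and 825 FPKM against 45.8, 0 and 41.0 FPKM. Over the summed libraries that is 2 reads against 26, a ratio of 0.0453 once depth is taken into account (95% exact interval 0.00521 to 0.181, counting error only). Its fitted difference of -3.51 ± 0.67 (SE, adjusted p = 0.00416) depends on the pseudocount.

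The remaining tested strands of the family did not pass. MiR-200c-3p, its most abundant member here, was at 9888, 47129 and 56825 FPKM with dextromethorphan alone and 12505, 11241 and 10297 with both drugs. DEX1 lay below all 3 combination libraries while DEX2 and DEX3 lay far above them, so the groups overlapped and the difference was -1.40 ± 0.48 (SE, adjusted p = 0.145). MiR-141-5p was at 406, 922 and 900.3 FPKM with dextromethorphan alone and 262, 299.7 and 196 with both drugs, with a difference of -1.35 ± 0.47 (SE, adjusted p = 0.145) and no overlap between the groups. MiR-200c-5p was under the mean filter and was listed at 0 in all 3 combination libraries and in DEX3.

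The family comes from 2 places in the rat genome, and each holds microRNAs that fell. In the coordinates of the deposited table (rn6 per the submitters' processing notes), miR-200b, miR-200a and miR-429 lie within chr5:173488342-173490218 on the minus strand, a span of 1877 bases, and all 5 of their tested strands passed, with a median of -2.45. MiR-200c and miR-141 lie within chr4:157236361-157236850 on the minus strand, a span of 490 bases, where 1 of 3 tested strands passed and the median was -1.40. The difference between the loci was not tested. Strands of 1 transcript are not independent measurements.

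**Figure D2:**
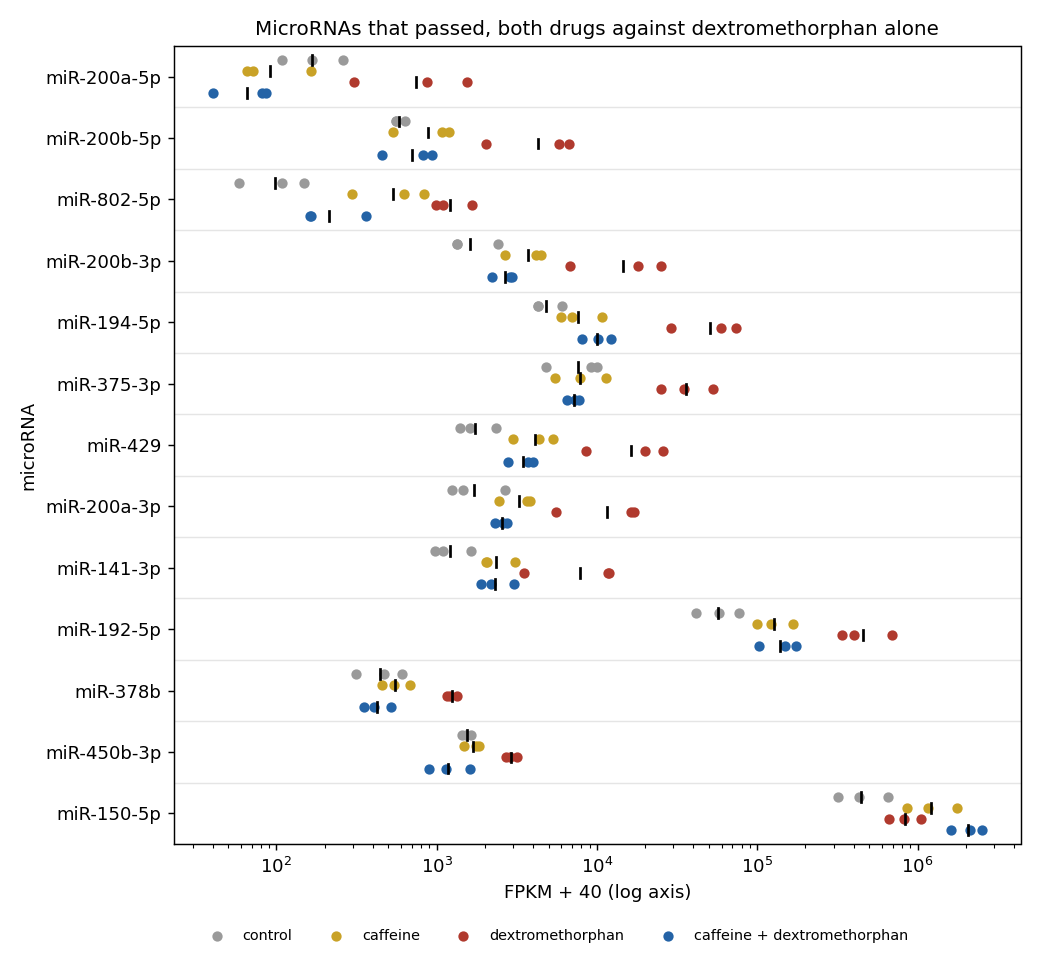
FPKM + 40 (log axis) in every library for the 13 microRNAs that passed, with control in grey, caffeine in yellow, dextromethorphan in red and both drugs in blue, and black ticks at each group's mean on the log scale. For the 12 that fell, all blue points lie left of all red points, and DEX1 is the leftmost red point in 10 of them. For miR-150-5p the blue points lie right of the red ones.

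MiR-192 and miR-194 were lower with both drugs as well. Of the 4 strands in the table, all tested, 2 fell, and all 4 had no overlap between the groups (13.1% of all tested did so in this direction). MiR-192-5p, the most abundant of the microRNAs that fell, made up 0.706%, 1.46% and 0.844% of reads in the dextromethorphan libraries and 0.367%, 0.313% and 0.215% in the combination libraries. It fell by 1.71 ± 0.32 (SE, adjusted p = 0.00416). DEX2 was the highest library, and even the lowest dextromethorphan library, DEX1, was well above the highest combination library.

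MiR-194-5p was at 29126, 73578 and 59531 FPKM with dextromethorphan alone and 12112, 10070.5 and 8028 with both drugs. It fell by 2.34 ± 0.35 (SE, adjusted p = 0.00157), and its lowest dextromethorphan value was DEX1. Control libraries held 4234 to 6026 FPKM and caffeine libraries 5951 to 10700.4 FPKM, so the combination libraries overlapped with caffeine alone. The passenger strands did not pass: miR-194-3p differed by -1.63 ± 0.50 (SE, adjusted p = 0.109) and miR-192-3p by -1.05 ± 0.44 (SE, adjusted p = 0.251). MiR-194 and miR-192 lie together within chr1:221634800-221635058 on the plus strand (rn6), 259 bases in all, and a second copy of miR-194-5p lies at chr13:103250590-103250611 on the plus strand. Reads from the copies cannot be told apart, and their rows were summed.

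MiR-375-3p, which restrains insulin secretion in islets, was at 25118, 34842 and 53004 FPKM with dextromethorphan alone and 7214, 7733 and 6422 with both drugs. It fell by 2.33 ± 0.36 (SE, adjusted p = 0.00157). The combination libraries were within a narrow band that lay inside the control range of 4772 to 9937 FPKM, and the dextromethorphan libraries were all above it. The site lies at chr9:82161725-82161746 on the minus strand. The other tested microRNAs of the endocrine list, both strands of miR-7a, which is abundant in islets and neurons, differed by -0.08 ± 0.45 (SE, adjusted p = 0.954) for miR-7a-5p and -0.03 ± 0.44 (SE, adjusted p = 0.986) for miR-7a-1-3p, so the list of 3 had a median of -0.08 with 1 that fell. MiR-375-5p was at 0 in all 6 libraries.

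The liver list was split. MiR-802-5p, a hepatocyte microRNA linked to glucose handling, had 18, 15 and 9 reads in the dextromethorphan libraries and 7, 2 and 3 in the combination libraries, or 957, 1610.3 and 1061 FPKM against 321, 126 and 123 FPKM. It fell by 2.51 ± 0.53 (SE, adjusted p = 0.0104), without overlap, though on few reads. Caffeine serum held 258 to 791 FPKM and control serum 18.1 to 109 FPKM.

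MiR-122-5p, the dominant hepatocyte microRNA and a serum marker of liver injury, took 15.1, 6.37 and 5.89 percent of reads with dextromethorphan alone and 10.1, 7.47 and 10.0 percent with both drugs. The combination libraries lay between DEX1 and the other dextromethorphan libraries, and the difference was 0.14 ± 0.39 (SE, adjusted p = 0.873). Of the 7 tested liver microRNAs 1 fell and none rose, with a median of -0.42. MiR-148a-3p differed by -0.24 ± 0.28 (SE, adjusted p = 0.719), and miR-33-5p, encoded in a gene of sterol control, by -0.42 ± 0.56 (SE, adjusted p = 0.755).

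Of the 12 that fell, miR-450b-3p and miR-378b belong to none of the tissue lists used here. MiR-450b-3p was at 3136, 2684 and 2829 FPKM with dextromethorphan alone and 1099, 1570.0 and 862 with both drugs. Its reads were 59, 25 and 24 against 24, 25 and 21, so outside DEX1 the counts were similar before scaling by depth. It fell by 1.30 ± 0.31 (SE, adjusted p = 0.0243), and the dextromethorphan libraries were close to each other, with DEX1 the highest of them, so here DEX2 and DEX3 do not lead. It is encoded on chromosome X, at chrX:158153296-158153316 and again at chrX:158589679-158589699, in a cluster with miR-322, miR-503, miR-351 and miR-542. Of 11 tested strands of the first copy of that cluster 1 passed, and the median was -0.39. MiR-351-3p differed by -0.97 ± 0.34 (SE, adjusted p = 0.147) without overlap, and miR-450b-5p, the other arm of the hairpin, had a positive difference of 1.07 ± 0.65 (SE, adjusted p = 0.464).

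MiR-378b had 24.5, 10.5 and 10 reads with dextromethorphan alone and 10.5, 5 and 9 with both drugs, as recovered from the FPKM. In FPKM these were 1302, 1127 and 1179 against 481, 314 and 369, and it fell by 1.55 ± 0.38 (SE, adjusted p = 0.0272). Its relative miR-378a-3p, which sits in the gene of the metabolic coactivator PGC-1beta and whose recovered counts were whole in 0 of 12 libraries, was at 44906, 41334 and 55456 FPKM with dextromethorphan alone and 31449, 28885 and 17936 with both drugs, with a difference of -0.89 ± 0.29 (SE, adjusted p = 0.128). Counts that are not whole may come from reads divided between places, which was not tested, and the values of both are uncertain to that extent.

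The dextromethorphan libraries differed among themselves in most of the microRNAs that fell, DEX1 being the lowest for 10 of the 12. Without DEX1, 24 microRNAs passed, and without DEX2 9 and without DEX3 10. Without both DEX2 and DEX3, none passed with limma, where the smallest adjusted p was 0.0871 and 56 had an unadjusted p under 0.05. For all 12 that fell, every combination library lay below every dextromethorphan library, so a value below 0 against DEX1 alone was fixed in advance. The median of the 12 moved from -2.29 to -1.47. The lone library is then assumed to vary like the other groups.

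Leaving out 1 library of the comparison ended the call of 4 of the 12. MiR-141-3p did not pass without DEX2 (-1.46, adjusted p = 0.107), DEX3 (-1.47, adjusted p = 0.151), CAFDEX3 (-1.72, adjusted p = 0.0842) or CAFDEX6 (-1.61, adjusted p = 0.108). MiR-378b did not pass without DEX2 (-1.60, adjusted p = 0.0555), DEX3 (-1.57, adjusted p = 0.0849), CAFDEX3 (-1.43, adjusted p = 0.0926) or CAFDEX6 (-1.53, adjusted p = 0.0955). MiR-450b-3p did not pass without DEX2 (-1.35, adjusted p = 0.0555), DEX3 (-1.31, adjusted p = 0.0693), CAFDEX2 (-1.28, adjusted p = 0.0738) or CAFDEX6 (-1.11, adjusted p = 0.106). MiR-802-5p did not pass without DEX2 (-2.29, adjusted p = 0.0555) or CAFDEX6 (-2.32, adjusted p = 0.0576). The other 8 of the 12 passed with any 1 library left out.

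Against DEX1 alone, miR-194-5p differed by -1.55 ± 0.41 (SE, adjusted p = 0.0871) and miR-375-3p by -1.82 ± 0.47 (SE, adjusted p = 0.0871). MiR-200b-3p moved from -2.45 to -1.35 and miR-141-3p from -1.76 to -0.59. MiR-802-5p, miR-450b-3p and miR-378b moved least, to -2.22, -1.43 and -1.67. The median of the miR-200 family was -1.22 without DEX2 and DEX3 and -2.71 without DEX1, where all 8 tested strands passed as lower. MiR-200c-3p then fell by 2.19 ± 0.29 (SE, adjusted p = 0.000143).

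**Figure D3:**
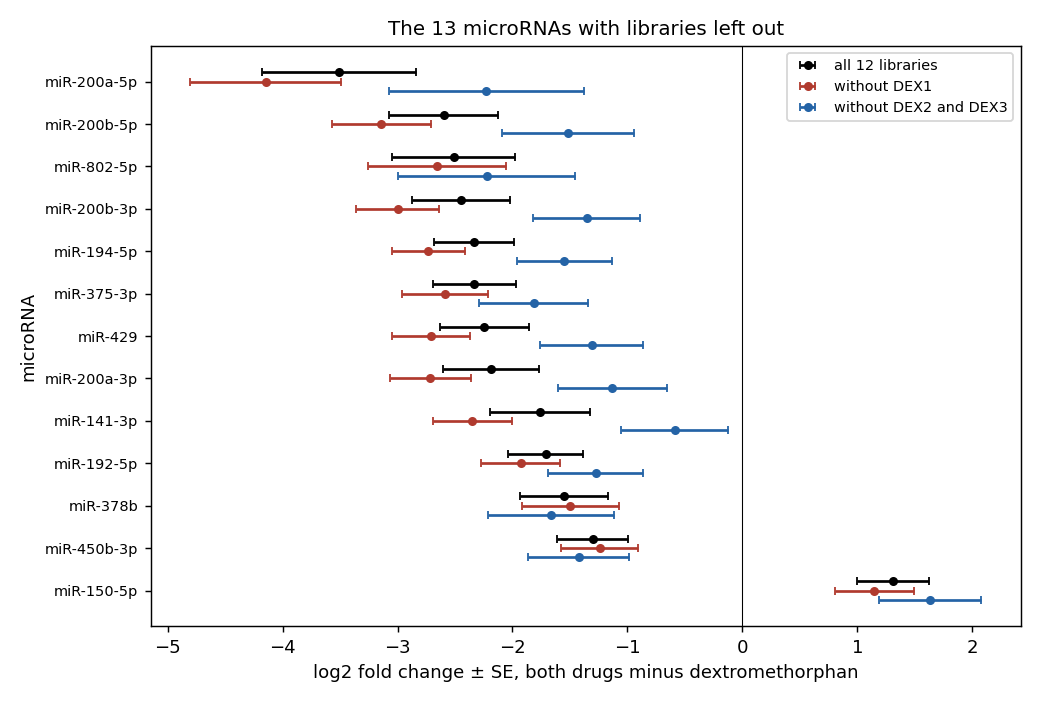
Log2 fold change ± SE, both drugs minus dextromethorphan, for the 13 microRNAs that passed, with all 12 libraries in black, without DEX1 in red and without DEX2 and DEX3 in blue. The blue values of the miR-200 family lie nearer to 0 than the black ones, miR-141-3p at -0.59 the nearest, while miR-450b-3p and miR-378b stay close to their black values.

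Red cell microRNAs were measured beside these results because DEX2 and DEX3 also held more of some of them. Of 10 names, 9 were in the table (miR-486 was not), all 9 were tested, none passed, and the median was -0.67 with 8 below 0. Together they took 12.8% to 15.3% of reads with dextromethorphan alone and 12.1% to 15.4% with both drugs. MiR-451-5p, the most used red cell marker, was at 4871, 7378 and 8215 FPKM against 5072, 4706 and 3015 FPKM, a difference of -0.67 ± 0.33 (SE, adjusted p = 0.338). MiR-144-3p, from the same transcript, was at 167, 1240.0 and 1609 FPKM against 192, 198 and 215 FPKM. DEX2 and DEX3 were far above the other 4 libraries, and DEX1 was below the combination libraries. Without DEX1, all 9 of the list were below 0 (median -0.90), and 2 passed as lower with limma. They were miR-144-3p (-2.59, adjusted p = 0.0198) and miR-144-5p (-1.69, adjusted p = 0.0339). With the haemolysis index as a covariate 16 microRNAs passed, 5 higher and 11 lower. These included 12 of the 13, the exception being miR-141-3p.

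One microRNA of the lymphocyte and immune activation list, miR-150-5p, rose. Of the 8 tested, 1 rose, none fell, all 8 had a log2 difference above 0 and 4 had all combination libraries above all dextromethorphan libraries (3.83% of all tested did), with a median of 0.60 against -0.24 over all tested. The groups overlapped for the other 4. MiR-150-5p, which restrains MYB in lymphocytes, took 1.46, 2.30 and 1.81 percent of reads with dextromethorphan alone and 4.70, 5.56 and 3.56 percent with both drugs. It rose by 1.31 ± 0.31 (SE, adjusted p = 0.0244), which is 2.48-fold (95% interval 1.56 to 3.93). The groups did not overlap. In caffeine serum it took 1.88 to 3.88 percent, so the combination libraries overlapped with caffeine alone, and in control serum 0.700 to 1.43 percent.

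MiR-146a-5p, a feedback inhibitor of NF-kappaB signalling, took 0.461, 0.726 and 0.652 percent of reads with dextromethorphan alone and 2.23, 1.39 and 0.863 percent with both drugs. The difference of 1.20 ± 0.33 (SE, adjusted p = 0.0554) did not pass, although the groups did not overlap. CAFDEX2 was the highest library. MiR-342-3p, another lymphocyte microRNA, took 0.887, 1.11 and 1.09 percent against 1.99, 1.67 and 1.57 percent, with a difference of 0.76 ± 0.21 (SE, adjusted p = 0.0661). MiR-155-5p, induced when lymphocytes and macrophages are activated, was at 13760.0, 26122 and 37459.7 FPKM with dextromethorphan alone and 55018, 45583 and 38319.6 with both drugs, with a difference of 0.94 ± 0.36 (SE, adjusted p = 0.202). Its lowest combination value was just above its highest dextromethorphan value, DEX3.

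These calls depend on scaling and on single libraries. Without DEX1, and likewise without CAFDEX2, 6 of the 8 were above 0. With median-of-ratios scaling, miR-146a-5p, miR-155-5p and miR-342-3p passed as higher beside miR-150-5p, at 1.45 (adjusted p = 0.00934), 1.19 (adjusted p = 0.0477) and 1.01 (adjusted p = 0.0101). Under quantile normalization the same 3 passed too. MiR-150-5p did not pass without DEX1 (1.15, adjusted p = 0.0614), nor without DEX3, CAFDEX2 or CAFDEX3. Against DEX1 alone its difference was 1.63 (adjusted p = 0.0871), further from 0 than with all libraries. The other arm, miR-150-3p, differed by 0.11 ± 0.43 (SE, adjusted p = 0.923), with DEX3 above all combination libraries.

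**Figure D4:**
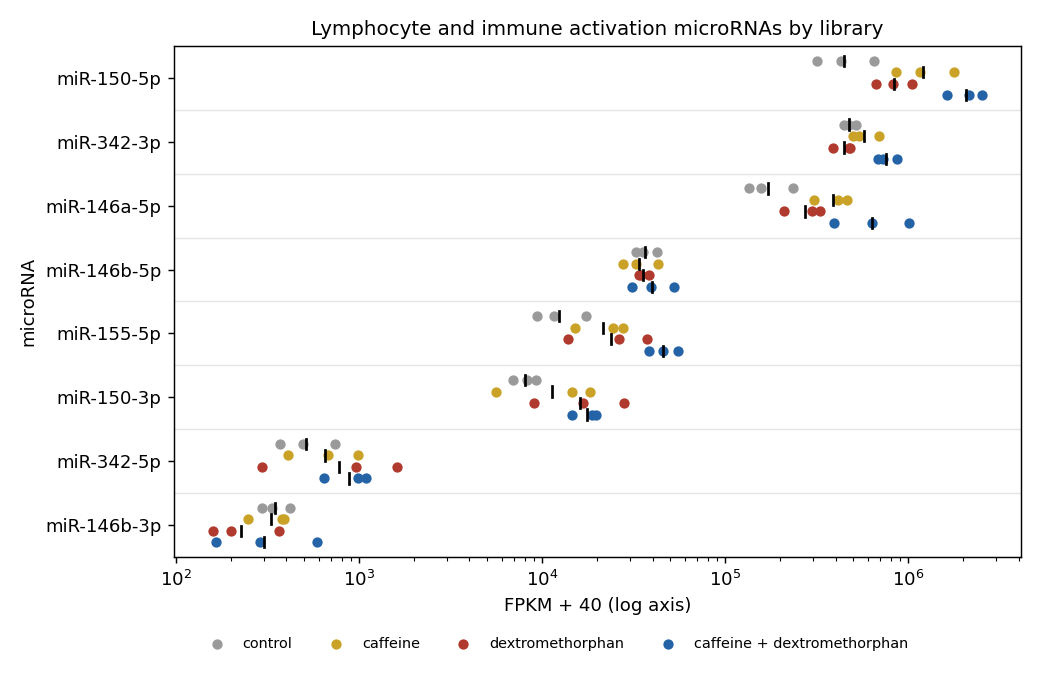
FPKM + 40 (log axis) in every library for the 8 tested microRNAs of the lymphocyte and immune activation list, coloured by group, with black ticks at each group's mean on the log scale. The blue points of both drugs lie right of the red points of dextromethorphan for miR-150-5p, miR-342-3p, miR-146a-5p and miR-155-5p, and overlap with them for the other 4.

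The next microRNAs by p, which did not pass, went both ways. On the lower side miR-193a-5p differed by -1.03 ± 0.33 (SE, adjusted p = 0.118), miR-101b-3p, a repressor of the histone methyltransferase EZH2, by -0.78 ± 0.26 (SE, adjusted p = 0.142), and miR-20a-5p of the miR-17 cluster by -1.03 ± 0.37 (SE, adjusted p = 0.159). On the higher side miR-298-5p differed by 1.05 ± 0.35 (SE, adjusted p = 0.139), miR-187-3p by 0.96 ± 0.33 (SE, adjusted p = 0.145) and miR-1306-5p by 0.60 ± 0.27 (SE, adjusted p = 0.290). MiR-298-5p was at 1626, 2658 and 2327 FPKM with dextromethorphan alone and 4836, 5619 and 3371 with both drugs, without overlap, and miR-187-3p was at 2334, 4202 and 3939 FPKM with dextromethorphan alone and 8832, 7073 and 4660.1 with both drugs. Both of these passed as higher under quantile normalization and under median-of-ratios scaling.

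Other tissue lists held no microRNA that passed. Squamous epithelium had 3 tested members and a median of -1.08, in which miR-203a-3p, a keratinocyte differentiation microRNA, was at 51072, 137249 and 131310.0 FPKM with dextromethorphan alone and 29455, 103792 and 29025 with both drugs. CAFDEX3 lay among the dextromethorphan values, and the difference was -1.12 ± 0.51 (SE, adjusted p = 0.290). The miR-183 cluster of sensory epithelia had 2 tested members, miR-183-5p with -0.62 ± 0.37 (SE, adjusted p = 0.451) and miR-182 with -0.51 ± 0.39 (SE, adjusted p = 0.566). Vascular and smooth muscle microRNAs numbered 11 with a median of -0.51. For miR-143-3p, which marks smooth muscle, DEX1 was the highest library, at 3.97% of reads against 0.694% and 1.35% in DEX2 and DEX3, and 0.359, 1.52 and 0.601 percent with both drugs.

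Striated muscle microRNAs had 5 tested members and a median of 0.09, brain had 12 and -0.11, and myeloid cells 4 and 0.06. Below the overall median were 1 of 5, 6 of 12 and 1 of 4 of them. MiR-206-3p of skeletal muscle differed by 0.85 ± 0.57 (SE, adjusted p = 0.507) and miR-1-3p by 0.35 ± 0.57 (SE, adjusted p = 0.782). In the brain list miR-124-3p, miR-137-3p and 3 more were at 0 in all 6 libraries, and miR-128-3p, which other tissues also express, differed by -0.32 ± 0.27 (SE, adjusted p = 0.602). MiR-223-3p, the neutrophil and platelet microRNA, differed by 0.43 ± 0.22 (SE, adjusted p = 0.343). The myeloid list had 2 members above 0 and 2 below. Its largest difference was that of miR-142-3p, at -0.83 ± 0.33 (SE, limma adjusted p = 0.222). Without DEX1, miR-142-3p passed as lower, at -1.27 (limma adjusted p = 0.00899). The let-7 guides, which restrain LIN28 and RAS, were all 9 below 0 with a median of -0.26, close to that of all tested microRNAs, and 5 of 9 were below 0 with median-of-ratios scaling. The miR-17 clusters, which promote proliferation, had 15 of 17 below 0 (11 with median-of-ratios scaling) and a median of -0.31. The imprinted Dlk1-Dio3 cluster had 18 of 25 above 0 (21 with median-of-ratios scaling) and a median of 0.34, with none passing. With 1 library of the comparison left out, 11 (without CAFDEX3) to 20 (without CAFDEX2) were above 0. The median was then -0.09 (without CAFDEX3) to 0.70 (without CAFDEX6).

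**Figure D5:**
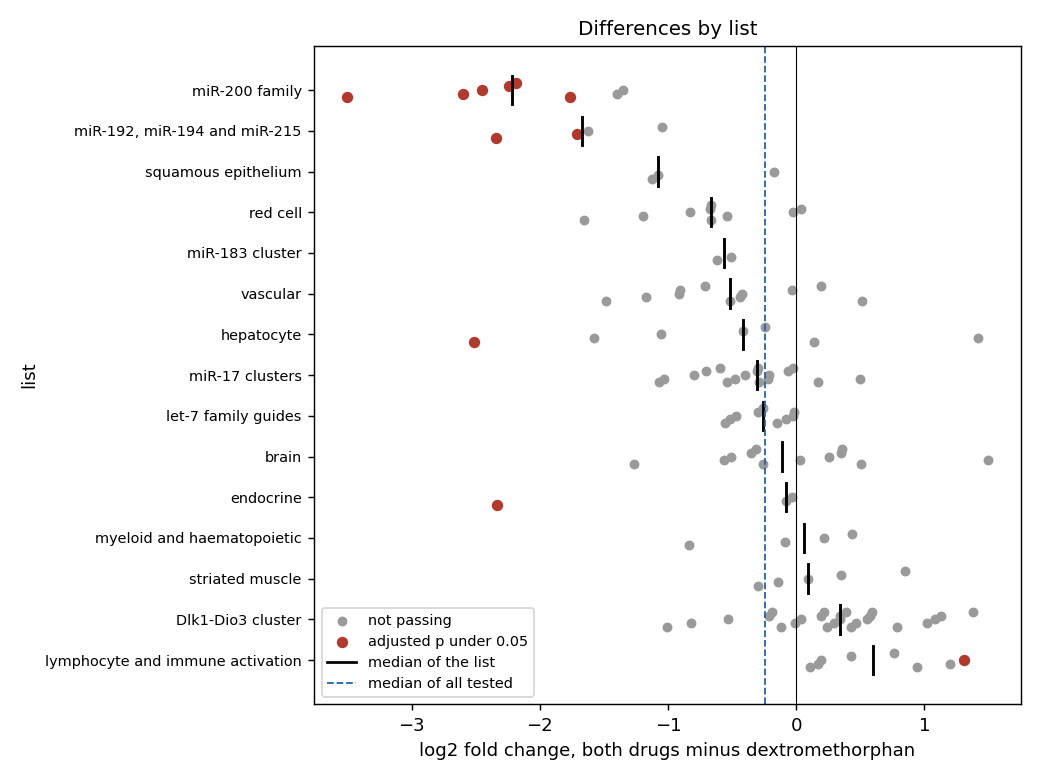
Log2 fold change, both drugs minus dextromethorphan, for each tested microRNA of 15 lists, sorted by the list's median (black tick), with microRNAs that passed in red and the median of all 366 dashed at -0.24. The miR-200 family has the lowest median (-2.21) and the lymphocyte and immune activation list the highest (0.60).

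The effect of caffeine on top of dextromethorphan can also be set against its effect alone, caffeine minus control, with limma's interaction contrast. Of 366 tested, 17 passed (4.64%), all 17 below 0, and 9 of them were among the 13. The 13 were chosen by the difference that is 1 term of this contrast, so their count here is a description and supports nothing.

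Both arms of a hairpin come from 1 precursor, so where the hairpin has 1 locus they give a second reading of the same transcript. MiR-194-5p has 2 loci, and the one on chromosome 13 lists no miR-194-3p. Both arms of miR-450b are listed at 2 loci. Of 102 hairpins with both arms tested, 54 had both differences below 0, 12 had both above and 36 had opposite signs. Of the 8 hairpins with an arm that passed, 6 had both arms below 0. They were miR-194, miR-200b, miR-192, miR-200a, miR-802 and miR-141, and the exceptions were miR-150, with both arms above 0, and miR-450b, with opposite signs. These hairpins were chosen because an arm passed, and in miR-200a and miR-200b both arms did. Their count is therefore a description and is not comparable with that over all hairpins. MiR-802-3p differed by -1.05 ± 0.89 (SE, adjusted p = 0.595) and was listed at 0 in DEX3 and CAFDEX6.

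Of the 10 most abundant microRNAs, miR-150-5p passed and the other 9 did not. The 10 took 66.0% to 69.6% of reads with dextromethorphan alone and 67.9% to 75.8% with both drugs. MiR-191a-5p, the most abundant, took 20.5, 27.4 and 21.0 percent of reads against 26.3, 19.2 and 31.2 percent, with overlapping groups and a difference of 0.14 ± 0.23 (SE, adjusted p = 0.783). MiR-16-5p, a repressor of cyclins that blood cells carry, differed by 0.04 ± 0.20 (SE, adjusted p = 0.940), and miR-140-3p of cartilage by -0.43 ± 0.26 (SE, adjusted p = 0.453). With miR-191a-5p left out of the totals, 15 microRNAs passed, 3 of them higher.

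The other 113 of the 479 names were too low to test. Their mean over the 12 libraries was 0.853 to 78.1 FPKM (median 30.4), and none had more than 4 reads in a library of this comparison. Of them 59 were seen in both groups, 24 with both drugs only, 26 with dextromethorphan only, and 4 in neither. The groups differed in depth, 758290 to 1160717 reads with both drugs against 403913 to 895792, and such low names can be missed in shallower libraries. Among the 366 tested, 0 were at 0 in all combination libraries and 1 in all dextromethorphan libraries. At the edge of the mean filter, miR-98-3p at 78.1 FPKM was left out and miR-374-3p at 81.9 FPKM was tested. At the edge of membership, 24 names were above 0 in exactly 3 libraries (highest value 392 FPKM, none of them tested) and 25 in exactly 2 libraries (highest 120 FPKM). A further 203 names were at 0 in all 12 libraries.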

How the data were processed

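Small RNA from 200 uL of serum was sequenced after QIAseq miRNA library preparation, a kit with molecular indices (UMIs). Whether UMIs were collapsed was not given in the sources. The authors deposited 1 FPKM value for each row and library, a row being a mature microRNA at 1 locus. The submitters' processing notes name cutadapt 3.7, STAR 2.7.10a, featureCounts, Subread 2.0.1 and DESeq2 1.20.0, and the build rn6. In each column FPKM times length summed to a constant, so a rise of an abundant microRNA lowers the others. Fractional counts in steps of 0.01 accounted for all values within a tolerance of 0.0001 of a step, and gave the depths and read shares. Libraries carry the names of their columns, since column numbers did not match those of the sample titles.

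The table held 836 rows for 752 names, 69 of them at several loci in 153 rows, which were summed. The model was limma 3.58.1 in R 4.3.3 on log2(FPKM + 40), with 4 groups sharing the spread, moderated by empirical Bayes with a mean-variance trend (degrees of freedom 8 residual, 7.58 prior), two-sided, over 366 microRNAs with a mean of at least 80 FPKM. Fold changes on this scale understate the change of low values. The fit was checked on simulated data. Named were all that passed; of the others above the median level with an unadjusted p under 0.05, the 6 with the smallest p in each direction; the 10 most abundant; and the 2 most abundant of each list. Other values given are members of the lists, hairpins and clusters of these. The members and lists were chosen with earlier results of these data known.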

Additional observations from a re-analysis of the deposited data

Results flagged for a closer look

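By limma's interaction contrast, caffeine's effect on top of dextromethorphan differed from its effect alone (caffeine minus control) for 17 of 366 microRNAs, 9 of them among the 13 of the main comparison. Those 9 were chosen for a large difference in the same libraries, which enters this contrast as a term and pushes its value, so they are given as a description. In the miR-200 family the difference between the effects was -3.48 ± 0.55 (SE, adjusted p = 0.00145) for miR-429, -3.64 ± 0.60 (SE, adjusted p = 0.00145) for miR-200b-3p, -3.20 ± 0.67 (SE, adjusted p = 0.0116) for miR-200b-5p, -3.12 ± 0.59 (SE, adjusted p = 0.00513) for miR-200a-3p and -2.72 ± 0.61 (SE, adjusted p = 0.0184) for miR-141-3p. For miR-200b-3p, the difference was -2.45 on top of dextromethorphan, where it includes any effect of the earlier dosing. With caffeine alone it was 1.18 ± 0.43 (SE, limma adjusted p = 0.101). None of these strands passed with caffeine alone. MiR-192-5p (adjusted p = 0.0419) and miR-802-5p (adjusted p = 0.0137) did, and miR-194-5p and miR-375-3p did not. MiR-192-5p gave -2.87 ± 0.46 (SE, adjusted p = 0.00145), with -1.71 on top of dextromethorphan and 1.15 alone, and miR-194-5p gave -3.01 ± 0.49 (SE, adjusted p = 0.00145). MiR-802-5p gave -4.97 ± 0.76 (SE, adjusted p = 0.00145), with -2.51 on top of dextromethorphan and 2.46 alone. MiR-375-3p gave -2.38 ± 0.51 (SE, adjusted p = 0.0121), with -2.33 on top of dextromethorphan and 0.05 alone. The 8 outside the 13 were miR-193a-5p at -1.73 ± 0.46 (SE, adjusted p = 0.0415), miR-192-3p at -2.41 ± 0.62 (SE, adjusted p = 0.0415), miR-152-3p at -1.39 ± 0.37 (SE, adjusted p = 0.0415), miR-199a-3p at -1.73 ± 0.46 (SE, adjusted p = 0.0415), miR-224-5p at -1.71 ± 0.45 (SE, adjusted p = 0.0415), miR-1-3p at -3.03 ± 0.80 (SE, adjusted p = 0.0415), miR-1b at -3.70 ± 0.89 (SE, adjusted p = 0.0259) and miR-133a-3p at -2.58 ± 0.62 (SE, adjusted p = 0.0259). For the muscle microRNA miR-1-3p, the effect of caffeine was 0.35 on top of dextromethorphan and 3.37 alone. MiR-150-5p did not pass, with a difference of -0.12 (adjusted p = 0.916), nor did miR-200a-5p, miR-450b-3p and miR-378b. The dextromethorphan libraries enter only the effect on top of dextromethorphan, and the part of DEX2 and DEX3 in these values was not tested.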

How the results depend on the processing

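Of 25 alternatives, 24 could be set against each named microRNA and 1 tested each row. The 12 lower calls kept their direction in all 24. Some of these fits cannot move a difference, only its p-value. They are those without a control or caffeine library, without the mean-variance trend, or with the compared groups alone. The 12 were also chosen in these same libraries, so the counts of alternatives are a description. MiR-194-5p, miR-375-3p, miR-429, miR-200b-3p, miR-200b-5p, miR-192-5p and miR-200a-3p passed in 23 of 24, the exception being the fit without DEX2 and DEX3. MiR-200a-5p passed in 22, miR-802-5p in 20, miR-150-5p in 18, miR-450b-3p in 17, miR-378b in 15 and miR-141-3p in 14. The count of microRNAs that rose, 1 as reported, was 2 without the mean filter, 6 with median-of-ratios scaling, 6 with quantile normalization, 3 without miR-191a-5p in the totals, 5 when the haemolysis index was a covariate, 0 without the mean-variance trend and 2 after thinning to the shallowest library. Without DEX2 and DEX3 together 0 rose and 0 fell, 0 in all, while unadjusted p-values were under 0.05 for 56. Leaving out single libraries, the count that passed was 9 (without DEX2) to 24 (without DEX1), with 0 to 2 higher and 8 to 22 lower. The cause was not tested. No paired analysis was possible because the column numbers could not be matched to the numbers of the sample titles.

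The sign changed only for microRNAs that did not pass, 18 of 37 named. With median-of-ratios scaling these were miR-148a-3p (0.0060), let-7c-5p (0.10), miR-30d-5p (0.12), miR-205 (0.072), let-7b-5p (0.16), miR-7a-5p (0.17) and miR-25-3p (0.22). Quantile normalization gave miR-383-5p 0.12, miR-205 0.32, miR-7a-5p 0.31 and miR-25-3p 0.051, and the totals without miR-191a-5p gave miR-25-3p 0.024. With the haemolysis index, miR-122-5p was at -0.17, miR-7a-5p at 0.24 and miR-25-3p at 0.12. Without DEX2 and DEX3, miR-200c-3p was at 0.19, miR-183-5p at 0.19, miR-140-3p at 0.0048, miR-182 at 0.49, miR-148a-3p at 0.15, miR-122-5p at -0.72, miR-7a-5p at 0.93 and miR-25-3p at 0.36. Leaving out single libraries gave -0.14 to 0.83 for miR-1-3p, -0.021 to 0.33 for miR-191a-5p, -0.17 to 0.51 for miR-409a-3p, -0.36 to 0.19 for let-7c-5p, -0.34 to 0.036 for miR-30d-5p, -0.47 to 0.75 for miR-126a-3p, -0.10 to 0.57 for miR-122-5p, -0.79 to 0.14 for miR-205, -0.30 to 0.29 for let-7b-5p, -0.054 to 0.17 for miR-16-5p, -0.58 to 0.26 for miR-7a-5p and -0.22 to 0.17 for miR-25-3p. Depth limits miR-200a-5p, miR-802-5p and miR-378b, which had 25 reads or fewer in every library of this comparison. It also limits miR-450b-3p, which had 21 to 59 reads. After thinning to the shallowest library, miR-450b-3p did not pass, nor did miR-200a-5p, miR-802-5p or miR-378b.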
